A study of Mus musculus with 20 samples.

Results

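Untreated Ripk3-/- AML-12 cells were compared with untreated wild-type AML-12 cells, 5 libraries of each. All 2894 genes that the authors' table lists for this pair of groups were included. These 10 libraries, chosen by their titles, belong to a series of 20 in which the other 10 came from the same cell lines given 125 µM palmitate for 24 h. AML-12 is an immortalised line derived from hepatocytes of a mouse carrying a human TGF-alpha transgene. The number of knockout clones and the way the allele was made are not given in the labels. Separate cultures are not stated for the 5 libraries of a genotype either, so each p-value is set against library-to-library spread that may be technical. The knockout and wild-type lines may differ in more than Ripk3, and differences that go with the allele and those that go with the line cannot be told apart here.

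RIPK3 is a serine/threonine kinase of necroptosis, a lytic form of cell death. It is brought to RIPK1, or to the adaptor TRIF and the sensor ZBP1, through a shared interaction motif, and phosphorylates the pseudokinase MLKL, which then breaches the plasma membrane. Caspase-8 holds the pathway in check, and hepatocytes in the liver are known for low RIPK3 levels. The comparison asks how the transcriptome of a hepatocyte line with a Ripk3 knockout differs at rest, before a lipid load.

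Each library held between 21.4 M and 29.4 M counted reads. Every level is one of the authors' normalised counts, in which reads are divided by 1 factor per library. The log2 fold changes are edgeR estimates for knockout against wild type. Their standard error (SE) was derived as the absolute log2 fold change divided by the square root of the F statistic of edgeR. Adjusted p-values in brackets are by edgeR unless another test is named, and positions are on mm10. The authors' deposited table gives counts only for the 2894 of 16106 tested genes (18.0%; 9.09% higher and 8.88% lower in knockout cells) with an adjusted p under 0.05 in their own test, so a gene that is not listed may be unchanged, too low or untested. Groups were called separate where the lowest library of one lay above the highest of the other. Knockout replicate 1 stood apart from the other 4 knockout libraries: the chi-square of its counts against each of them, divided by the degrees of freedom, was 35.0 to 48.2, against 15.2 at most for the other pairs within a genotype. It was the only overlapping library in 490 otherwise separate listed genes, where any other library was so in 69 to 191. Those 490 genes had a median length of 1468 bases, against 4172 over all listed genes. Counts that rest on this library are given with and without it.

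Ripk3 itself (ENSMUSG00000022221, chromosome 14, 55784995 to 55788865) was low but not absent in the knockout line. Its normalised counts were 5.85, 8.53, 2.04, 5.70 and 1.18 in knockout replicates 1 to 5 and 10.4, 18.2, 26.0, 17.3 and 18.3 in wild-type replicates 1 to 5. The genotypes did not overlap, and the mean was 4.66 ± 3.02 against 18.0 ± 5.52 (SD, n = 5 libraries of a genotype), a log2 fold change -1.90 with SE 0.39 and adjusted p = 0.00486 by edgeR. These values stand for 22 and 97 reads over the 5 libraries of a genotype. The exact permutation p was 0.00794 (two-sided), the smallest that 5 against 5 libraries can give. The transcript that remains was not resolved by exon in a gene count, so it does not show whether protein is made.

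Of the 16106 genes the authors tested, edgeR called 2336 (14.5%) at an adjusted p under 0.05, 1141 higher (7.08%) and 1195 lower (7.42%) in the knockout line. Only genes already listed by the authors from these libraries could be fitted, so this share could not pass 18.0%. The called shares of the gene lists below carry the same limit. The groups were separate in 1649 of the 2894 listed genes (57.0%), which were all chosen for passing in this comparison. Most differences were small: the median absolute log2 fold change of listed genes was 0.26, and 168 rose and 141 fell by at least 1. Higher genes made up 48.8% of the calls, or 59.2% under TMM scaling over the listed genes, which moved the median log2 fold change by 0.02.

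The largest rises included genes of prostaglandin, itaconate and redox metabolism, of ion and water transport, and a pair of inflammatory caspases. The gene named 8430408G22Rik in the files (Depp1 in RefSeq, a FOXO target; ENSMUSG00000048489, chromosome 6, 116650609 to 116652794) led them, at 435, 368, 409, 331 and 307 in knockout and 63.4, 55.4, 77.9, 42.2 and 50.2 in wild-type libraries (log2 fold change 2.67 with SE 0.15 and adjusted p = 2.76e-08 by edgeR). Acod1, which makes itaconate from cis-aconitate, was 144, 148, 112, 92.4 and 132 against 37.3, 49.0, 56.6, 28.8 and 40.5 (1.57 with SE 0.18, adjusted p = 4.99e-05). Hpgds, a prostaglandin D2 synthase, was 89.7, 109, 96.1, 95.8 and 104 against 32.1, 29.9, 38.0, 25.9 and 44.4 (1.53 with SE 0.15, adjusted p = 1.06e-05). In each of these genes every knockout library lay above every wild-type library. Groups without overlap and a mean of at least 50 in the higher group were required in the choice of the 15 largest rises and the 15 largest falls. Genes at lower levels with larger changes, such as Casp1 and Aplp1, are described apart.

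Slc16a7, a carrier of pyruvate and other monocarboxylates, stood at 154 to 175 in knockout and 33.5 to 41.5 in wild-type libraries (log2 fold change 2.15 with SE 0.11 and adjusted p = 2.1e-08 by edgeR). The extracellular superoxide dismutase Sod3 ranged over 99.2 to 158 against 41.7 to 64.0 (1.37 with SE 0.16, adjusted p = 4.44e-05), and Flt1, a receptor for VEGF, over 54.4 to 82.9 against 23.4 to 37.6 (1.33 with SE 0.17, adjusted p = 0.000133). Neurl1b, a ubiquitin ligase for Notch ligands, rose by 1.45 (SE 0.18), Malrd1, which in mouse gut acts on Fgf15 levels, by 1.31 (SE 0.10) and Col6a1, a chain of collagen VI, by 1.43 (SE 0.15). The remaining 6 of the 15 largest rises, Casp12, Casp4, Atp1b1, Cdh16, Aqp1 and the interferon-induced Ifi27, are described with their groups.

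The largest falls took genes with clear wild-type expression to a small remainder. Mal2, which carries proteins to the apical membrane of hepatocytes (ENSMUSG00000024479, chromosome 15, 54571192 to 54602847), was 21.4, 16.0, 11.2, 10.3 and 31.9 in knockout and 236, 252, 266, 235 and 231 in wild-type libraries (log2 fold change -3.75 with SE 0.19 and adjusted p = 1.52e-08 by edgeR). Gpc4, a heparan sulfate proteoglycan that binds growth factors, was 38.0, 50.1, 40.9, 25.1 and 29.5 against 407, 432, 398, 403 and 459 (-3.50 with SE 0.13, adjusted p = 4.34e-10). Bche, the plasma cholinesterase made by hepatocytes, was 36.1, 40.5, 31.7, 30.8 and 34.3 against 133, 164, 118, 161 and 145 (-2.05 with SE 0.14, adjusted p = 2.92e-07). No library of either genotype came near the range of the other in these genes, where the choice had required groups without overlap.

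Several of the other large falls were in genes of signalling and of cell shape. Fmn1, a formin that nucleates actin, stood at 37.6 to 62.6 in knockout and 155 to 207 in wild-type libraries (log2 fold change -1.89 with SE 0.14 and adjusted p = 8.12e-07 by edgeR). Robo1, a receptor for Slit proteins, stood at 25.1 to 35.8 against 86.3 to 128 (-1.81 with SE 0.15, adjusted p = 2.46e-06), and Rasgrf2, an exchange factor for Ras and Rac, at 15.6 to 21.7 against 59.9 to 73.8 (-1.77 with SE 0.16, adjusted p = 3.91e-06). The calcium-stimulated adenylyl cyclase Adcy8 (-1.80 with SE 0.13, adjusted p = 7.25e-07), Sgsm1, a GTPase-activating protein for Rab and Rap (-1.79 with SE 0.14, adjusted p = 1.04e-06), and the secreted matrix protein Ccdc80 (-1.76 with SE 0.23, adjusted p = 0.000157) fell as well. So did the theta-class glutathione transferase Gstt2 (-2.14 with SE 0.27, adjusted p = 0.000111), the lanthionine synthetase-like Lancl3 (-1.93 with SE 0.18, adjusted p = 6.88e-06) and the uncharacterised 0610040J01Rik (-2.11 with SE 0.18, adjusted p = 2.56e-06). Apoe, Gda and Axin2 complete the 15 and follow below.

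**Figure D1:**
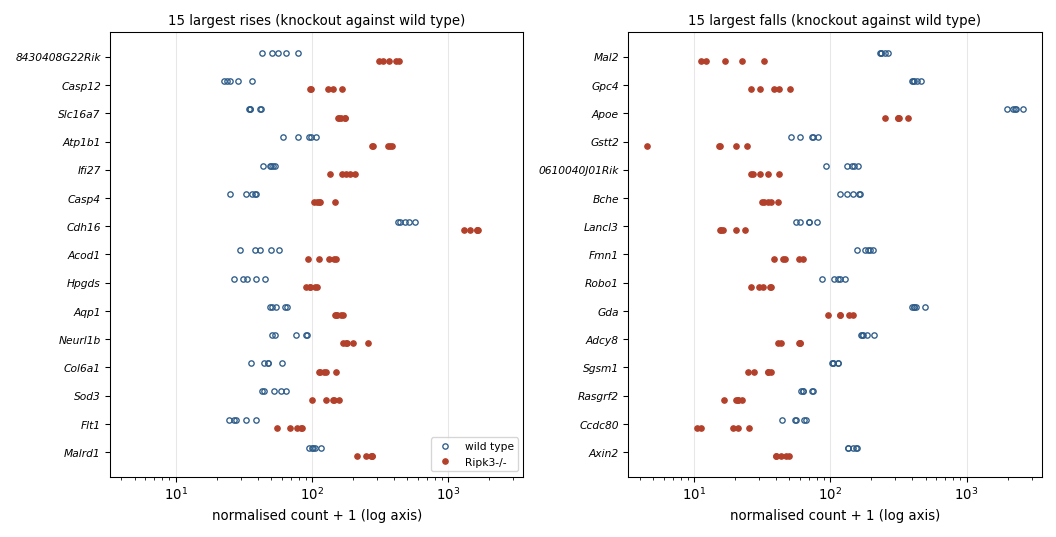
Normalised counts plus 1 (log axis) of the 15 protein-coding genes with the largest rises (left) and the 15 with the largest falls (right) in every untreated library, open circles for wild type and filled circles for Ripk3-/-, n = 5 each. The genotypes do not overlap in any of the 30 genes, which the choice of genes required, along with a mean of at least 50 in the higher group.

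A few genes had no read at all in the knockout line. Aplp1, a relative of the amyloid precursor protein, had 0 reads over the 5 knockout libraries and 150 over the 5 wild-type libraries, 28 to 36 in each. Against the 3 reads that a count of 0 over the group allows, it was at least 43.1-fold lower, for counting error only. The transcription factor Sall3 (103 wild-type reads), Rimkla, a ligase that makes N-acetylaspartylglutamate (92), and the unclassified transcript Gm44062 (55) also had 0 knockout reads, at least 29.6-fold, 26.4-fold and 15.8-fold lower. Genes just above this limit, named after their values were seen, were Panx1, a channel that releases ATP (3 reads against 122, log2 fold change -4.89 with SE 0.45 and adjusted p = 5.84e-06 by edgeR), Zfp422, a zinc finger protein (5 against 236, -5.19 with SE 0.46, adjusted p = 4.03e-06), and Serping1, the C1 inhibitor of the complement system (3 against 87, -4.40 with SE 0.57, adjusted p = 0.000138).

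The inflammatory caspases rose together. Caspase-1 processes interleukin-1, and caspase-1 and caspase-11 drive pyroptosis, a lytic death route apart from necroptosis. In the mouse genome Casp1, Casp4 (the mouse caspase-11) and Casp12 lie side by side on chromosome 9. Casp4 (5308828 to 5336783) was 112, 113, 147, 103 and 108 in knockout and 35.6, 31.8, 38.0, 37.4 and 24.1 in wild-type libraries (log2 fold change 1.80 with SE 0.15 and adjusted p = 3.01e-06 by edgeR). Casp12 (5345430 to 5373032) was 140.4, 130.0, 98.1, 95.8 and 165 against 21.7, 22.7, 35.2, 27.8 and 24.1 (2.25 with SE 0.19, adjusted p = 2.74e-06). Casp1 (5298517 to 5307265), which lies outside the naming rule and was chosen after its values were seen, was 27.3, 24.5, 16.3, 12.5 and 17.7 against 0.868, 1.82, 1.86, 0.959 and 2.90 (3.48 with SE 0.39, adjusted p = 4.25e-05), and rested on 93 and 9 reads. All 3 genes were separate between the genotypes, with no library near the other range. Of the 232 listed protein-coding genes of chromosome 9, 211 were lower and 21 higher, and the trio is among the latter.

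Because the 3 genes lie together and rose together, their promoters are shown, credited to RefSeq on GRCm38.p6, plus strand. RefSeq gives 250 bases before its own start of each gene. The genes start earlier in the files for Casp4 and Casp12, so the last 21 and 46 of those bases, which lie inside the gene as positioned above, are left out here. Capitals mark the STAT-binding GAS motif TTCNNNGAA, searched on both strands, where it is its own reverse complement.
Casp1, chr9:5298267-5298516: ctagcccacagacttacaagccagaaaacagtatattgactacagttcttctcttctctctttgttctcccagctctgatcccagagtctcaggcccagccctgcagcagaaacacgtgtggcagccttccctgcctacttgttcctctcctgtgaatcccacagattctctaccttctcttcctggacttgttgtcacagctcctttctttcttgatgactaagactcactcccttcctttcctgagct
Casp4, chr9:5308599-5308827: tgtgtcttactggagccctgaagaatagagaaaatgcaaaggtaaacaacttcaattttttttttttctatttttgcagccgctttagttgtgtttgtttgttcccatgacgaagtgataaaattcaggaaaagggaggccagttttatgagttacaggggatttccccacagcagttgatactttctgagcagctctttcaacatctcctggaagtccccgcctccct
Casp12, chr9:5345226-5345429: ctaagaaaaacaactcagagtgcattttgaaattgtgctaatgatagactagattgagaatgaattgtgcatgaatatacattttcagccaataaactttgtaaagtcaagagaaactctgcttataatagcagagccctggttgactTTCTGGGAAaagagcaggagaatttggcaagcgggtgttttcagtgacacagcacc
The 250 bases of RefSeq held 2 matches for Casp12, of which 1 lies before the gene start in the files and is shown, and 0 for Casp1 and Casp4. Among all 32851 promoter stretches of 250 bases, 7.02% held a match. The interferon-stimulated response element (ISRE), searched on both strands, was in none of the 3 stretches and in 2.98% of all. Of the 2 promoters that the table lists for Casp4, the one starting first is shown. A match describes these letters and does not show that a factor binds.

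**Figure D2:**
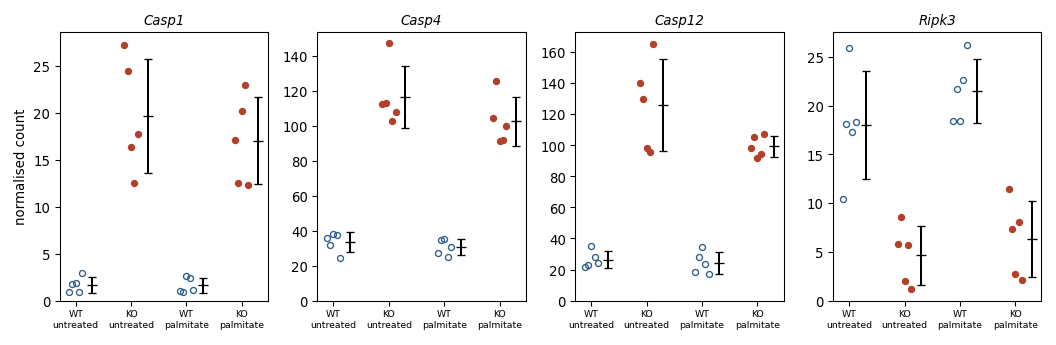
Normalised counts of Casp1, Casp4, Casp12 and Ripk3 in each library by genotype (WT, wild type; KO, Ripk3-/-) and treatment, with mean and SD beside the points (n = 5 per group); the vertical scale differs between panels. Every knockout library lies above every wild-type library for the 3 caspases and below for Ripk3, untreated and with palmitate.

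Most other genes of necroptosis and death receptor signalling were not listed. Of 28 members, 8 were listed, and edgeR called 2 higher and 4 lower (21.4% of members called, against 14.5% of all genes tested). Those lower were Ripk3, Fas, Rnf31 and Tnfrsf1a. Ripk3 is the targeted gene, so the design favoured its call, and the 21.4% includes it. With each library left out in turn, 4 to 5 members were called lower and 1 to 2 higher (1 without wild-type replicate 2). The death receptor Fas (ENSMUSG00000024778, chromosome 19, 34290659 to 34327770) was 803, 744, 731, 632 and 774 in knockout and 992, 1037, 1155, 1025 and 1108 in wild-type libraries (log2 fold change -0.53 with SE 0.06 and adjusted p = 7.65e-05 by edgeR). The TNF receptor Tnfrsf1a was 3908, 3552, 3515, 3686 and 3731 against 4419.7, 4483, 4592, 4407 and 4373 (-0.28 with SE 0.03, adjusted p = 9.96e-05). Both receptors were separate between the genotypes.

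Rnf31, the catalytic subunit of the linear ubiquitin ligase that holds back TNF-induced death, fell (-0.32 with SE 0.05, adjusted p = 0.000658), and Otulin, which removes linear ubiquitin, rose (0.20 with SE 0.05, adjusted p = 0.023; the call was lost without wild-type replicate 2, with an adjusted p of up to 0.0615). Rnf31 and Ripk3 lie on chromosome 14, where most listed genes fell. Tlr4, the receptor for endotoxin, which can feed into RIPK3 through TRIF, was 17.5, 20.3, 17.4, 7.98 and 9.45 in knockout and 3.47, 3.63, 2.78, 4.79 and 3.86 in wild-type libraries (log2 fold change 1.96 with SE 0.36 and adjusted p = 0.00215 by edgeR). Among the members not listed were the partners of RIPK3, Ripk1, Mlkl, Zbp1, Fadd, Casp8 and Ticam1.

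Genes for secreted hepatocyte proteins mostly fell where they were listed. Of 51 members, 14 were listed, and edgeR called 2 higher and 9 lower (21.6%), with 9 to 10 called lower when any single library was left out. The median log2 fold change of the listed members was -0.71, against 0.10 over all listed genes. Apoe, the ligand that clears remnant lipoproteins (ENSMUSG00000002985, chromosome 7, 19696109 to 19699188), was 319.7, 313, 314, 252 and 369.9 in knockout and 2318, 2205, 2582, 2269.8 and 1974 in wild-type libraries (log2 fold change -2.86 with SE 0.09 and adjusted p = 4.34e-10 by edgeR). Apoh, which binds phospholipids in plasma, was 14.6, 17.1, 21.5, 18.2 and 15.4 against 54.7, 48.1, 55.7, 61.3 and 55.0 (-1.65 with SE 0.16, adjusted p = 1.23e-05). Vtn, the plasma adhesion protein vitronectin, was 66.3, 50.1, 50.1, 51.3 and 57.9 against 170.1, 152, 185, 174 and 152 (-1.59 with SE 0.12, adjusted p = 8.12e-07). All 3 were separate between the genotypes by a wide gap.

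The fibrinogen chains Fgb (-1.11 with SE 0.28, adjusted p = 0.0165) and Fga (-0.92 with SE 0.18, adjusted p = 0.00405) fell at lower levels, with means of 17.1 and 41.2 in knockout and 36.7 and 78.4 in wild-type cells. Ambp, the alpha-1-microglobulin precursor, was 6325 to 6794 against 9981 to 11279 (-0.68 with SE 0.04, adjusted p = 3.38e-08) and Cfi, a regulator of complement, 2465 to 2645 against 4071 to 4470.1 (-0.73 with SE 0.03, adjusted p = 6e-09). The members called higher were Serpina1b, an alpha-1-antitrypsin paralogue whose reads can fall on near-identical copies, and the iron carrier Trf. Trf was 1329.6, 2522, 2388, 2324 and 2905 in knockout and 1464, 1116, 1472, 1403 and 1395 in wild-type libraries (0.74 with SE 0.19, adjusted p = 0.0334), with knockout replicate 1 below the highest wild-type library, and the call was lost without knockout replicates 2, 3, 4 or 5 or wild-type replicates 1, 2, 3, 4 or 5, with an adjusted p of up to 0.0808. The count called higher was 1 to 3 when single libraries were left out (1 without knockout replicates 2, 4 or 5 or wild-type replicates 1, 2, 4 or 5).

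Hepatocyte transcription factors and enzymes moved in both directions. Of 35 members, 8 were listed, and edgeR called 2 higher and 5 lower (20% of members), a count that fell to 2 lower without knockout replicate 4 or wild-type replicate 1, to 3 without knockout replicates 2 or 5 or wild-type replicates 2 or 3, and to 1 higher without knockout replicates 2 or 3 or wild-type replicates 3, 4 or 5. Tfr2, the iron-sensing transferrin receptor of hepatocytes, fell from 1227–1414 to 769.9–984 (log2 fold change -0.55 with SE 0.06 and adjusted p = 5.43e-05 by edgeR), and the pioneer factor Foxa1 rose from 909–1028 to 1101–1295 (0.30 with SE 0.05, adjusted p = 0.00193). The related factor Foxa3 overlapped between the genotypes (-0.42 with SE 0.11, adjusted p = 0.0189; the call was lost without wild-type replicates 4 or 5, with an adjusted p of up to 0.0533).

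Genes of biliary and ductal epithelium mostly rose where they were listed. Of 31 members, 11 were listed, and edgeR called 7 higher and 2 lower (29.0%), with 6 to 8 called higher when single libraries were left out. The called-lower count was 1 without knockout replicates 3 or 4 or wild-type replicates 3 or 5, and 3 without knockout replicate 1. Cdh16, a cadherin of kidney and ductal epithelium (ENSMUSG00000031881, chromosome 8, 104601911 to 104624396), was 1638, 1434, 1608, 1629.8 and 1307 in knockout and 565, 438, 509, 481 and 428 in wild-type libraries (log2 fold change 1.65 with SE 0.08 and adjusted p = 3.12e-08 by edgeR). Aqp1, a water channel of bile ducts, was 149, 163, 152, 168 and 147 against 64.2, 48.1, 50.1, 62.3 and 53.1 (1.48 with SE 0.11, adjusted p = 1.14e-06). Atp1b1, the beta subunit of the sodium pump, was 358, 371, 383, 278 and 273 against 97.2, 94.4, 77.9, 105 and 60.8 (1.93 with SE 0.14, adjusted p = 1.03e-06).

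The keratin Krt19 rose from 5719–6611 to 7651–9327 (log2 fold change 0.41 with SE 0.06 and adjusted p = 0.000188 by edgeR) and Spp1, which encodes osteopontin, from 24469.9–29049 to 31211–35767 (0.33 with SE 0.05, adjusted p = 0.000537). Sox9, the transcription factor of the ductal lineage, went the other way and fell from 6023–6879.7 to 5153–5925 (-0.23 with SE 0.05, adjusted p = 0.00353). The epithelial factor Elf3 fell with overlapping groups (-0.25 with SE 0.07, adjusted p = 0.0223; the call was lost without knockout replicates 3 or 4 or wild-type replicates 3 or 5, with an adjusted p of up to 0.0587).

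Wnt/beta-catenin signalling shapes the pericentral zone of the liver, and its feedback genes Axin2 and Rnf43 fell, while other members rose. Of 38 members, 12 were listed, and edgeR called 3 higher and 8 lower (28.9%). Without knockout replicates 2, 3, 4 or 5 or wild-type replicates 1, 2 or 3, 5 members were called lower. Axin2, the inhibitor that beta-catenin itself induces (ENSMUSG00000000142, chromosome 11, 108920349 to 108950783), was 48.7, 42.6, 38.8, 46.8 and 39.0 in knockout and 145, 134, 135, 154 and 157 in wild-type libraries (log2 fold change -1.74 with SE 0.12 and adjusted p = 2.92e-07 by edgeR). Rnf43, a ligase that removes Wnt receptors, was 1377, 1319.6, 1328, 1427 and 1270.4 against 2012, 2085, 1877, 2016 and 2002 (-0.57 with SE 0.04, adjusted p = 7.43e-07). The R-spondin receptor Lgr5 was 0, 0, 2.04, 1.14 and 1.18 against 4.34, 4.54, 9.28, 6.71 and 7.72 (-2.75 with SE 0.61, adjusted p = 0.00798; the log2 fold change was -3.31 without knockout replicate 3).

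Axin2, Rnf43 and Lgr5 were separate between the genotypes. Znrf3, which acts like Rnf43, went the other way, from 1040.0–1162 to 1157–1391 (log2 fold change 0.24 with SE 0.05 and adjusted p = 0.00804 by edgeR), and so did Lgr4 (0.23 with SE 0.06, adjusted p = 0.0136) and the cyclin Ccnd1 (0.33 with SE 0.07, adjusted p = 0.00446). The groups of Znrf3 and Lgr4 overlapped. Smaller falls were those of the Wnt acyltransferase Porcn, with overlapping groups (-0.20 with SE 0.05, adjusted p = 0.0176), and of the ligand Wnt10a (-0.16 with SE 0.04, adjusted p = 0.0107).

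Genes that make and desaturate fatty acids mostly rose where they were listed. Of 26 members, 12 were listed, and edgeR called 10 higher and 2 lower (46.2%), with 8 to 10 called higher and 2 lower when single libraries were left out. Scd1, which makes monounsaturated fatty acids, was 1862, 1764, 1813, 2039 and 1584 in knockout and 1185, 922, 967, 1077 and 927 in wild-type libraries (log2 fold change 0.84 with SE 0.08 and adjusted p = 1.43e-05 by edgeR). Elovl6, which elongates palmitate, was 2056, 2119, 2089.6, 2409 and 2045 against 1831, 1713, 1567, 1746 and 1709 (0.32 with SE 0.05, adjusted p = 0.000766). Both were separate between the genotypes. Smaller rises were those of the carboxylase Acaca (0.22 with SE 0.04, adjusted p = 0.00371), the synthase Fasn (0.23 with SE 0.05, adjusted p = 0.0111), the ligase Acsl4 (0.25 with SE 0.05, adjusted p = 0.0021), the desaturase Fads1 (0.14 with SE 0.03, adjusted p = 0.00863) and Scd2 (0.18 with SE 0.04, adjusted p = 0.0065). The carbohydrate-sensing transcription factor Mlxipl fell (-0.42 with SE 0.08, adjusted p = 0.00306), as did Hacd3, a dehydratase of very long chain synthesis on chromosome 9 (-0.30 with SE 0.04, adjusted p = 0.000275).

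Cholesterol genes stood near the background, with 3 of 34 called higher and 2 lower (14.7%). Without wild-type replicate 5, 1 was called higher, and the lower count was 0 without knockout replicates 2 or 5 or wild-type replicates 1 or 4 and 1 without knockout replicates 1, 3 or 4 or wild-type replicates 3 or 5. For fatty acid oxidation and PPAR alpha targets, of 40 members, 8 were listed, and edgeR called 6 higher and 1 lower (17.5%; 4 to 6 higher with single libraries left out). The coactivator Ppargc1a rose from 497–556 to 618–721 (log2 fold change 0.31 with SE 0.06 and adjusted p = 0.00191 by edgeR) and the droplet coat Plin2 from 8768–9239.6 to 9753–11170.4 (0.20 with SE 0.04, adjusted p = 0.00263), while the pantetheinase Vnn1 fell from 472–496 to 349.6–381 (-0.42 with SE 0.05, adjusted p = 0.000133). Etfb, an electron carrier of beta-oxidation, was 251, 494, 549.7, 477 and 635 against 247, 222, 259.7, 257 and 259 (0.95 with SE 0.20, adjusted p = 0.0111), with knockout replicate 1 at the wild-type level.

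Oxidising enzymes of drug, purine and aldehyde metabolism mostly fell where they were listed. Of 38 members, 18 were listed, and edgeR called 5 higher and 12 lower (44.7%), with 9 to 12 called lower when single libraries were left out. Gda, the guanine deaminase, was 118, 135, 145, 117 and 95.7 in knockout and 413, 497, 410.0, 399 and 425 in wild-type libraries (log2 fold change -1.80 with SE 0.10 and adjusted p = 4.64e-08 by edgeR). Aldh1b1, a mitochondrial aldehyde dehydrogenase, was 9.75, 13.9, 8.17, 12.5 and 3.55 against 22.6, 21.8, 27.8, 27.8 and 29.0 (-1.41 with SE 0.27, adjusted p = 0.00288). Adh1, the class I alcohol dehydrogenase, went the other way with 55.6, 32.0, 41.9, 36.5 and 40.2 against 17.4, 17.2, 23.2, 12.5 and 17.4 (1.23 with SE 0.21, adjusted p = 0.00121). All 3 were separate between the genotypes.

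Aldh1a7 fell from 979.6–1132 to 581–646 (log2 fold change -0.80 with SE 0.05 and adjusted p = 1.91e-07 by edgeR) and Aldh1a1, which makes retinoic acid, from 10499–11344 to 8640.4–9881 (-0.26 with SE 0.04, adjusted p = 0.000582), although reads of this close pair may be split between them. Xanthine dehydrogenase, Xdh (-0.23 with SE 0.04, adjusted p = 0.000681), and the acetaldehyde-clearing Aldh2 (-0.21 with SE 0.04, adjusted p = 0.00111) fell as well. The xenobiotic-induced Cyp1a1 was 3.55 to 14.6 against 15.6 to 30.9 (-1.14 with SE 0.34, adjusted p = 0.0337; the call was lost without knockout replicates 3, 4 or 5 or wild-type replicates 2 or 5, with an adjusted p of up to 0.0983). The term Metabolism of xenobiotics by cytochrome P450 in the authors' deposited KEGG enrichment held 6 genes higher and 20 lower (adjusted p = 0.0239 in that enrichment). It rests on the same libraries and gives no separate support. It was 1 of 14 terms under an adjusted p of 0.05. Oxidative phosphorylation led them with 57 genes higher and 4 lower (adjusted p = 0.000959 in that enrichment), and calls of the respiratory lists, given below, changed with single libraries left out. Antioxidant and NRF2 targets had 3 of 36 called higher and 5 lower (22.2%; 3 lower without knockout replicates 2 or 3 or wild-type replicate 4), including the transferases Gsta4 (0.35 with SE 0.06, adjusted p = 0.00152) and Gstm1 (-0.34 with SE 0.05, adjusted p = 0.000469), the peroxidase Prdx6 (0.22 with SE 0.04, adjusted p = 0.00384) and the transketolase Tkt (-0.21 with SE 0.04, adjusted p = 0.00215).

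Inflammatory genes moved in both directions. Of 39 members, 14 were listed, and edgeR called 4 higher and 7 lower among NF-kB targets and acute phase proteins (28.2%; 3 to 5 higher and 5 to 8 lower with single libraries left out). Nos2, the inducible nitric oxide synthase (ENSMUSG00000020826, chromosome 11, 78920787 to 78960254), was 864, 785, 934, 628 and 704 in knockout and 358, 369, 385, 289 and 348 in wild-type libraries (log2 fold change 1.16 with SE 0.11 and adjusted p = 1.13e-05 by edgeR). The chemokine Ccl20 was 6146, 6695, 5983, 5350.2 and 5710.4 against 4786, 4586, 5117, 4633 and 4759 (0.32 with SE 0.05, adjusted p = 0.000811). Both were separate between the genotypes.

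Among acute phase genes, Crp, an opsonin, fell from 2655–2863 to 1933–2229 (-0.44 with SE 0.04, adjusted p = 7.21e-06), the haemoglobin scavenger Hp from 1325–1583 to 959–1153 (-0.42 with SE 0.06, adjusted p = 0.000364) and serum amyloid Saa3 from 34385–41324 to 28225–33584 (-0.29 with SE 0.06, adjusted p = 0.00327). Saa1 and Saa2, near-identical copies whose reads may be shared, fell with overlapping groups (-0.76 and -0.76 on the log2 scale, the call was lost without knockout replicate 4 or wild-type replicates 4 or 5, with an adjusted p of up to 0.0599 for Saa1, and the call was lost without knockout replicate 3 or wild-type replicates 1 or 3, with an adjusted p of up to 0.0547 for Saa2). Interferon genes were rarely listed. Of 49 members, 4 were listed, and edgeR called 1 higher and 2 lower (6.12%; 2 higher without knockout replicate 3 or wild-type replicate 4, and 1 lower without either), and the median over the 4 listed was -0.01, or 0.01 with TMM scaling. Ifi27, a mitochondrial protein induced by type I interferon, was 165, 177, 190.1, 133 and 207 in knockout and 48.6, 42.7, 49.2, 52.7 and 51.2 in wild-type libraries (log2 fold change 1.83 with SE 0.13 and adjusted p = 7.01e-07 by edgeR), whereas Irf9, a subunit of the interferon-activated factor, which lies on chromosome 14, fell from 508–607 to 408–478 (-0.33 with SE 0.06, adjusted p = 0.0029).

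**Figure D3:**
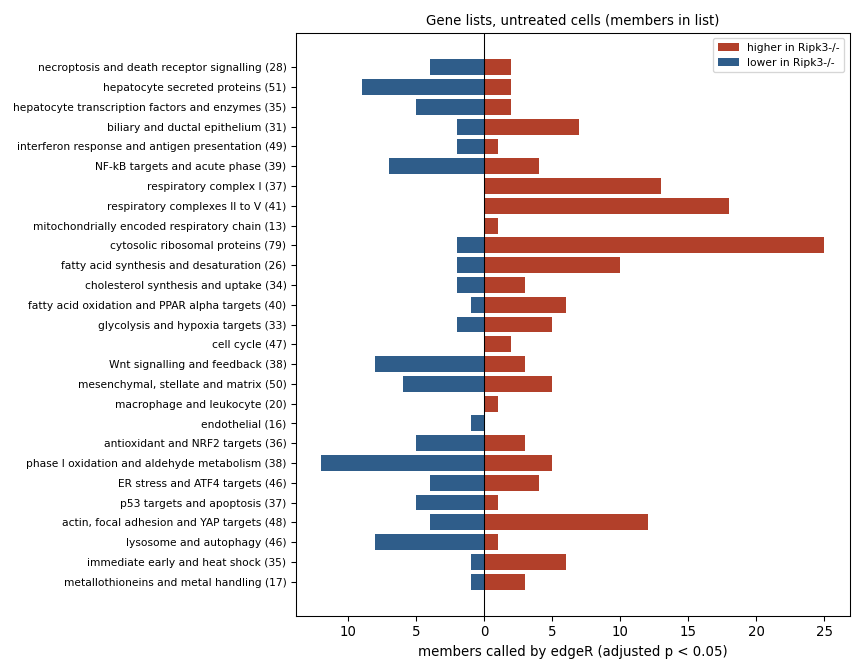
Number of members called higher (red, to the right) or lower (blue, to the left) by edgeR in untreated Ripk3-/- cells for each gene list with a listed member; the size of the list is in brackets. Ribosomal and respiratory lists have the longest bars to the right (25, 18 and 13), and phase I oxidation the longest to the left (12).

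Listed genes for the respiratory chain and for cytosolic ribosomes had a higher median in 4 of the 5 knockout libraries. Of 37 members, 20 were listed, and edgeR called 13 higher and 0 lower for complex I (35.1%). For complexes II to V, of 41 members, 20 were listed, and edgeR called 18 higher and 0 lower (43.9%). For ribosomal proteins, of 79 members, 42 were listed, and edgeR called 25 higher and 2 lower (34.2%). Relative to the wild-type mean, the median of the listed ribosomal genes was 0.00, 0.28, 0.29, 0.27 and 0.43 on the log2 scale in knockout replicates 1 to 5 and -0.01, -0.12, 0.12, 0.04 and -0.03 in wild-type replicates 1 to 5, over the 41 members also listed with palmitate. For complex I it was 0.01, 0.30, 0.26, 0.29 and 0.42 in knockout replicates, and for complexes II to V 0.01, 0.30, 0.24, 0.32 and 0.43. Knockout replicate 1 thus sat at the wild-type level in all 3 lists.

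**Figure D4:**
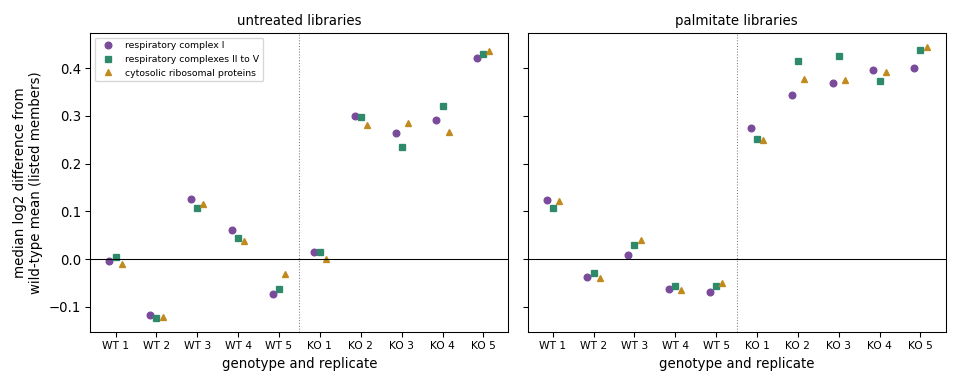
Median log2 difference from the wild-type mean of the same treatment, over listed members of 3 gene lists, in each untreated (left) and palmitate-treated (right) library; circles, complex I; squares, complexes II to V; triangles, ribosomal proteins. Untreated knockout replicate 1 lies at 0.00 to 0.01, the other untreated knockout libraries at 0.24 to 0.43 and the palmitate knockout libraries at 0.25 to 0.45.

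Without knockout replicate 1 the called-higher counts were 19, 19 and 38 for complex I, complexes II to V and ribosomal proteins. Without any other single library they fell, to a low of 3, 6 and 6 without wild-type replicate 5, 5, 8 and 6 without wild-type replicate 2, 5, 8 and 10 without wild-type replicate 1, 8, 10 and 14 without wild-type replicate 4, and 5 to 6, 8 to 11 and 7 to 12 without knockout replicates 2, 3, 4 or 5. The exception was wild-type replicate 3, without which the counts stayed within 1.5 times. Rps29, a small ribosomal subunit protein, was 2412, 7428, 7823, 8013 and 7826 in knockout and 2804, 2034, 2983, 2948 and 2809 in wild-type libraries (log2 fold change 1.30 with SE 0.31 and adjusted p = 0.0264 by edgeR; the call was lost without knockout replicates 2, 3, 4 or 5 or wild-type replicates 1, 2, 3, 4 or 5, with an adjusted p of up to 0.066). Atp5k, a subunit of ATP synthase, was 408, 1414, 1406, 1461 and 1647 against 431, 328, 461, 482 and 461 (1.55 with SE 0.34, adjusted p = 0.0194; the call was lost without wild-type replicate 1, with an adjusted p of up to 0.0507).

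In a few other members every knockout library lay above every wild-type library. The groups were separate in 3 of 20 listed genes of complex I and 2 of 20 of complexes II to V. For ribosomal proteins it was 1 of 42, against 57.0% of all listed genes. Cycs, which encodes cytochrome c, was 3124, 3599.6, 3488, 3808 and 3894 in knockout and 2992, 2674, 3107, 3116 and 2834 in wild-type libraries (log2 fold change 0.28 with SE 0.06 and adjusted p = 0.00603 by edgeR). Uqcrfs1, the Rieske protein of complex III, was 4223, 4207, 4302, 4323 and 4288 against 3879.8, 3746, 4095, 3939.6 and 3664 (0.14 with SE 0.03, adjusted p = 0.0113). The complex I subunits Ndufv1 (0.17 with SE 0.04, adjusted p = 0.0198; the call was lost without wild-type replicate 5, with an adjusted p of up to 0.0569) and Ndufs8 (0.21 with SE 0.06, adjusted p = 0.0198; the call was lost without wild-type replicate 5, with an adjusted p of up to 0.057) were separate as well. The 2 ribosomal genes called lower, Rps24 (-0.22 with SE 0.06, adjusted p = 0.023; the call was lost without knockout replicates 3 or 4 or wild-type replicates 1, 3, 4 or 5, with an adjusted p of up to 0.0582) and Rpl15 (-0.15 with SE 0.03, adjusted p = 0.012), both lie on chromosome 14. Of the 13 mitochondrially encoded genes only mt-Nd3 was listed, 54.6, 188, 141, 167 and 100.5 against 58.2, 51.7, 69.6, 75.7 and 67.6 (1.01 with SE 0.28, adjusted p = 0.0297; the call was lost without knockout replicates 2, 3 or 4 or wild-type replicates 1, 2, 3, 4 or 5, with an adjusted p of up to 0.0841).

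Gene length moved with this pattern. Among the 176 shortest listed genes, up to 600 bases long, 82.4% lay higher in knockout cells, against 45.6% of the 2088 listed genes over 2500 bases. Only 22 of the 176 were protein-coding, and 95.5% of those lay higher, against 45.7% of the 2033 protein-coding genes over 2500 bases. Among ribosomal genes, the 5 listed members of up to 1000 bases had a median log2 fold change of 0.58 and the 37 longer ones 0.24, while the respiratory lists were 0.33 against 0.26 for complex I and 0.29 against 0.27 for complexes II to V. The part of length and of library preparation in these differences was not tested. Many ribosomal genes also have near-identical processed pseudogenes, so reads may be shared between them. Of 197 listed processed pseudogenes, 159 were higher (125 called higher and 23 lower), against 1464 of all 2894 listed genes (1141 called higher and 1195 lower).

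The same libraries differed in ribosomal RNA and in other abundant noncoding transcripts. The rRNA transcript CT010467.1 took 0.0792% of all reads in knockout replicate 1, 0.133% to 0.191% in knockout replicates 2 to 5 and 0.0320% to 0.0635% in the wild-type libraries. Its normalised counts were 20124, 48621, 33939, 45040.5 and 35174 against 8525, 16176, 9635, 8130.3 and 9662 (log2 fold change 1.81 with SE 0.28 and adjusted p = 0.00411 by edgeR). Malat1, a nuclear long noncoding RNA, was 26479, 67752, 69053, 61039.7 and 56654 against 27756, 29427, 25028, 25883 and 31160.5 (1.01 with SE 0.24, adjusted p = 0.0251; the call was lost without knockout replicates 2, 3, 4 or 5 or wild-type replicates 1, 2, 3 or 4, with an adjusted p of up to 0.0625). Knockout replicate 1 lay inside the wild-type range for Malat1 and closest to it for CT010467.1, and the other 4 knockout libraries lay well above it for both. Whether RNA quality or rRNA depletion had a part in the list counts above was not tested.

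Further noncoding genes differed. Lncenc1, a long noncoding RNA known from mouse embryonic stem cells (ENSMUSG00000078952, chromosome 13, 97434970 to 97497007), was 3463, 3638, 3663, 3712 and 3524 in knockout and 1206, 1223, 1059, 1104 and 1125 in wild-type libraries (log2 fold change 1.65 with SE 0.04 and adjusted p = 5.78e-12 by edgeR), with a narrow spread in each genotype. The unclassified Gm44430 fell from 224–266 to 67.3–101 (-1.53 with SE 0.12, adjusted p = 1.04e-06). Rab26os, a transcript on the strand opposite Rab26, was 39.0, 133, 169, 167 and 141 against 33.9, 27.2, 34.3, 35.5 and 30.9 (1.99 with SE 0.33, adjusted p = 0.00209), with knockout replicate 1 again near the wild-type level. The strand setting of the counting is not given, so its reads cannot be told apart from those of Rab26.

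Adhesion and cytoskeleton genes more often rose than fell where they were listed. Of 48 members, 20 were listed, and edgeR called 12 higher and 4 lower (33.3%; 7 higher without knockout replicates 2 or 4). Anxa1, a phospholipid-binding protein that dampens inflammation, was 655, 608, 599.8, 585 and 648 in knockout and 405, 367, 394, 381 and 335 in wild-type libraries (log2 fold change 0.72 with SE 0.06 and adjusted p = 3.76e-06 by edgeR). The collagen-binding integrin Itga2 was 1452, 1325, 1381, 1112 and 1255 against 779, 879, 801, 857 and 860.0 (0.65 with SE 0.07, adjusted p = 1.45e-05). Ankrd1, a YAP target, rose from 8149–9469 to 10589.8–13063 (0.43 with SE 0.05, adjusted p = 0.00012) and the laminin-binding Itga3 from 8371–9155 to 9976–10971 (0.24 with SE 0.04, adjusted p = 0.000593), while the fibronectin receptor subunit Itga5 fell from 2112–2319 to 1761–2016 (-0.24 with SE 0.04, adjusted p = 0.0017). All of these were separate between the genotypes. Of the 4 called lower, 3 lie on chromosomes 9 or 14. Of all 1123 protein-coding genes called lower, 182 lay on chromosome 9 and 174 on chromosome 14.

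Matrix genes went both ways, with 5 of 50 called higher and 6 lower (22.0%; 4 to 5 and 5 to 6 with single libraries left out). Fibronectin, Fn1, fell from 33189–38147 to 21661–27195 (log2 fold change -0.52 with SE 0.06 and adjusted p = 3.16e-05 by edgeR), and the membrane protease Mmp14 from 4346–4624 to 3063–3750.0 (-0.40 with SE 0.05, adjusted p = 4.56e-05). The galectin Lgals1 rose from 9979–11532 to 13069–17000.2 (0.40 with SE 0.07, adjusted p = 0.00144) and the protease inhibitor Timp2 from 6979–7284 to 7864–8802 (0.23 with SE 0.03, adjusted p = 0.000582). Listed lysosome and autophagy genes were lower more often than higher. Of 46 members, 11 were listed, and edgeR called 1 higher and 8 lower (19.6%; 5 lower without knockout replicate 4 or wild-type replicates 1 or 3, and 0 higher without knockout replicates 1, 2, 3 or 5 or wild-type replicates 1, 3, 4 or 5). The proteases Ctsh (-0.47 with SE 0.05, adjusted p = 9.01e-06) and Ctsb (-0.25 with SE 0.04, adjusted p = 0.00032), the galactosidase Glb1 (-0.29 with SE 0.04, adjusted p = 0.000145) and the autophagosome protein Gabarapl1 (-0.20 with SE 0.04, adjusted p = 0.00204) were separate. Of the 8 called lower, 4 lie on chromosomes 9 or 14, which held 182 and 174 of all 1123 protein-coding genes called lower.

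Dusp4, Dusp6 and Spred1, which restrain the ERK pathway, rose. In the list of immediate early and heat shock genes, of 35 members, 11 were listed, and edgeR called 6 higher and 1 lower (20% of members; 5 to 7 higher with single libraries left out, and 2 lower without knockout replicate 1). The MAP kinase phosphatase Dusp4 was 1252, 1014, 1030.0, 912 and 787 in knockout and 661, 639, 659.5, 641 and 536 in wild-type libraries (log2 fold change 0.67 with SE 0.11 and adjusted p = 0.00127 by edgeR). Its relative Dusp6 was 984, 945, 866, 992 and 942 against 728, 746, 757, 758 and 719 (0.35 with SE 0.05, adjusted p = 0.000188). The Ras inhibitor Spred1 was 1489, 1601, 1587, 1629.8 and 1523 against 1193, 1324, 1172, 1242 and 1284 (0.33 with SE 0.04, adjusted p = 0.000181). The small heat shock protein Hspb1 fell from 367–503 to 301–332 (-0.36 with SE 0.09, adjusted p = 0.0127).

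Metal handling shifted in both directions, with 3 of 17 called higher and 1 lower (23.5%; 2 lower without knockout replicate 1 or wild-type replicate 5). The iron exporter Slc40a1 rose from 4004–4319 to 5339–5964 (log2 fold change 0.46 with SE 0.04 and adjusted p = 1.79e-06 by edgeR) and the transferrin receptor Tfrc from 1845–2122 to 2308–2591 (0.29 with SE 0.05, adjusted p = 0.000747), while the zinc and iron importer Slc39a14, on chromosome 14, fell from 2504–2638 to 1698–2047 (-0.43 with SE 0.04, adjusted p = 2.03e-05). For glycolysis and hypoxia targets, of 33 members, 9 were listed, and edgeR called 5 higher and 2 lower (21.2%; 1 lower without any single library but knockout replicate 1 or wild-type replicate 4). Beside Slc16a7 they included the oxygen sensor Egln3 (0.51 with SE 0.09, adjusted p = 0.00144) and the enzymes Aldoa (0.21 with SE 0.04, adjusted p = 0.0017) and Hk1 (0.21 with SE 0.05, adjusted p = 0.00768).

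Stress, p53 and cell cycle lists stayed near or under the background of 14.5%. For ER stress and ATF4 targets, of 46 members, 9 were listed, and edgeR called 4 higher and 4 lower (17.4%; 1 to 2 higher without knockout replicates 1 or 2 or wild-type replicates 1, 3, 4 or 5, and 1 to 2 lower without knockout replicates 2, 3 or 4 or wild-type replicates 1, 3 or 5), with log2 fold changes of -0.20 to 0.30. For p53 targets and apoptosis, of 37 members, 8 were listed, and edgeR called 1 higher and 5 lower (16.2%; 0 lower without knockout replicate 2, 1 without knockout replicate 3, 2 to 3 without any wild-type replicate, and 2 higher without knockout replicate 4 or wild-type replicate 5). The antiapoptotic Bcl2 rose from 314–358 to 399.5–485 (log2 fold change 0.42 with SE 0.07 and adjusted p = 0.00112 by edgeR). For the cell cycle, of 47 members, 6 were listed, and edgeR called 2 higher and 0 lower (4.26%; 4 higher without knockout replicate 3 or wild-type replicate 4, and 1 without any of knockout replicates 2, 4 or 5 or wild-type replicates 1, 2, 3 or 5), including Ccnd2, a cyclin of G1 (0.40 with SE 0.08, adjusted p = 0.00745).

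Markers of other cell types were seldom listed. Of 20 macrophage and leukocyte markers only Cd14 was, which hepatocytes also make, at 6109.8 to 7297 in knockout and 4684 to 5629.6 in wild-type libraries (log2 fold change 0.35 with SE 0.05 and adjusted p = 0.000684 by edgeR). Of 16 endothelial markers only the scavenger receptor Stab1 was, at 102 to 149 against 147 to 165 (-0.41 with SE 0.11, adjusted p = 0.024; the call was lost without knockout replicates 4 or 5 or wild-type replicates 2, 4 or 5, with an adjusted p of up to 0.0596). None of 8 Y-linked genes was listed. The summed level of the listed ductal genes was 86446 to 90468 in knockout and 74223 to 79802 in wild-type libraries, and that of the listed secreted hepatocyte proteins 18641 to 21386 against 25328 to 27845. These sums cover only the 11 of 31 and 14 of 51 members listed. Those members were chosen for passing in this comparison, so a gap between the sums was favoured by the choice. Members not listed included Krt7, Krt8, Krt18 and Epcam, and Alb, Ttr, Apoa1 and Ahsg. In bulk RNA, fewer cells of a type and less RNA per cell cannot be told apart.

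The direction of change differed between chromosomes. On chromosome 14, which carries Ripk3, 189 of 201 listed protein-coding genes were lower in the knockout line (94%, median log2 fold change -0.24), and on chromosome 9 it was 211 of 232 (90.9%, median -0.19). Outside these chromosomes 929 of 2133 were lower (43.6%, median 0.13). The share lower there ran from 31.4% on chromosome 7 to 65.6% on chromosome 2, with 64.8% on chromosome 10 and 59.9% on chromosome 6. Of the annotated protein-coding genes, 22.3% on chromosome 14 and 19.2% on chromosome 9 were listed, against 8.65% to 14.5% on the others. Chromosome number was not measured.

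The palmitate-treated libraries of the same lines gave a second look at the difference, with no library in common. Of the 2336 genes called in untreated cells, 1888 were also listed there, where the authors listed 24.6% of the genes tested (12.3% higher and 12.3% lower), edgeR called 24.2% (12.1% higher and 12.1% lower) and the groups of 70.5% of listed genes were separate. The direction was the same in 1887 and opposite in 1, the phosphate carrier Slc20a1 (0.16 with SE 0.05, adjusted p = 0.0372 untreated; the call was lost without knockout replicates 2, 4 or 5 or wild-type replicates 1, 2, 3, 4 or 5, with an adjusted p of up to 0.104), and 1880 were called with palmitate in the same direction. That is 80.5% of the untreated calls and 44.1% of the 4259 palmitate calls. All 1888 genes had passed the authors' test in both comparisons, which favours equal direction. Lines rather than libraries are shared, so both comparisons hold the same knockout and wild-type lines. Each comparison listed different members of a list, so a changed balance of calls does not mean that the same genes reversed. Immediate early and heat shock genes had 6 called higher and 1 lower of 11 listed untreated, and 3 and 5 of 9 with palmitate. Adhesion and cytoskeleton genes had 12 and 4 of 20, then 12 and 14 of 27. ER stress and ATF4 targets had 4 and 4 of 9, then 2 and 12 of 17. Ductal genes (7 and 2 of 11, then 10 and 4 of 15) and secreted hepatocyte genes (2 and 9 of 14, then 6 and 11 of 17) leaned the same way. List differences between treatments were not tested.

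Values of single genes are given for both treatments. With palmitate, Casp12 was 98.5, 106, 91.8, 94.1 and 107 in knockout and 18.5, 28.3, 34.3, 23.4 and 17.1 in wild-type libraries (log2 fold change 2.01, SE 0.16). Axin2 was 50.4, 43.9, 53.3, 47.1 and 58.8 against 151, 175, 157, 172 and 170.2 (-1.70, SE 0.11). Apoe was 376, 330.5, 362, 389 and 319.7 against 2267, 2257, 2178, 2062 and 1971 (-2.60, SE 0.05). Estimates lay further apart for Saa3 (-0.29 untreated and -0.60 with palmitate), Tlr4 (1.96 and 1.28), Hpgds (1.53 and 1.07) and Fgb (-1.11 and -0.67), with edgeR interaction p adjusted over all genes tested of 0.438, 0.964, 0.859 and 0.991. The median of the listed ribosomal genes relative to the wild-type mean was 0.25, 0.38, 0.38, 0.39 and 0.45 in the 5 knockout libraries with palmitate, that of complex I 0.27, 0.34, 0.37, 0.40 and 0.40 and that of complexes II to V 0.25, 0.41, 0.43, 0.37 and 0.44. All 5 knockout libraries with palmitate lay above every wild-type library in these medians.

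The difference of the genotype effect between the treatments, tested as an interaction over all 20 libraries, was called in 0 of 2993 genes (0.0%) by edgeR, with 172 at an unadjusted p under 0.05. DESeq2 called 6, namely Ubb, Aldh1a7, Slc20a1, Slc7a11, Pim2 and Gm26917. Its estimates were 0.33 for Aldh1a7 (adjusted p = 0.0167 by DESeq2) and -0.31 for Slc20a1 (adjusted p = 0.0364 by DESeq2). With a replicate block, edgeR called 4, namely Ubb, Aldh1a7, Gm26917 and Dusp4 (-0.53, adjusted p = 0.0157 by edgeR). Only genes with counts in all 20 libraries could enter, so these counts cover no others.

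**Figure D5:**
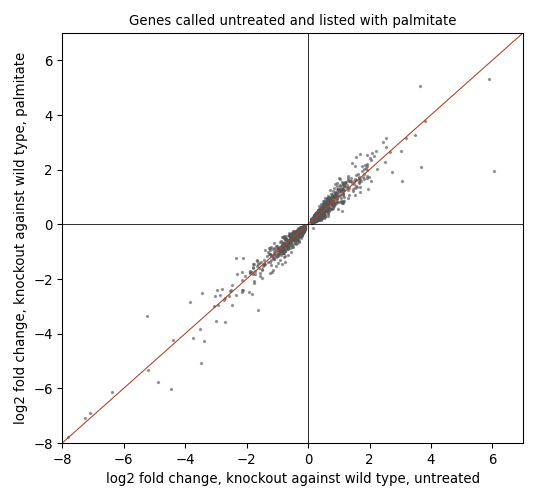
Log2 fold change of knockout against wild type in untreated (horizontal) and palmitate-treated (vertical) cells for the 1888 genes called untreated and listed with palmitate; the line marks equal values. Genes at 0 in a group have fitted values that depend on the prior count. All but 1 gene lie in the quadrants of equal sign, as the listing in both tables favours.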

How the data were processed

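RNA-seq libraries of untreated and palmitate-treated AML-12 cells were compared by genotype. The submitters' processing notes name FastQC 0.11.9, HISAT2, featureCounts 1.5.0-p3, DESeq2 and mm10, without further versions. Strand handling was not given in the sources used here. Per the file headers, the deposited tables hold a read count per gene and library, and the authors' normalised signal, which equals the count divided by 1 factor per library. The authors also deposited FPKM values per kilobase of gene length and 1 M reads, a log2 fold change, and p-values of their own test, unadjusted and adjusted.

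Each table lists only genes with an adjusted p under 0.05. Read counts were fitted with edgeR 4.0.16 (quasi-likelihood, robust; R 4.3.3) using the authors' factors, and p-values were Benjamini-Hochberg adjusted over all 16106 genes the authors tested (17611 with palmitate). Since low-ranking genes are absent, the spread was estimated from listed genes. DESeq2 1.42.0, limma 3.58.1 on FPKM, other scalings, filters, a replicate block and leaving out each library were alternatives. The fit was checked on counts simulated with the same spread for every gene and no deviating library. That check covers neither the authors' selection of listed genes nor a library that stands apart. Intervals and floors cover counting error only. Depth was 21.4 M to 29.4 M reads per library, and no column of another sample was used.

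The members and the 28 gene lists were chosen with earlier results of these data known. Named were Ripk3, the 15 largest protein-coding rises and the 15 largest falls among called, separate genes with a mean of at least 50, the 4 largest called changes of each list, the 5 largest noncoding changes and genes at 0 in 1 genotype. Further list members were named for their roles after their values were seen. Some genes that the rule names are not reported here.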

Additional observations from a re-analysis of the deposited data

Results flagged for a closer look

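Each normalised count given here lay far from the other 4 libraries of its genotype by Dixon's ratio. This held for 19 of 280 groups of 5 libraries, and chance gives about 1 in 20 groups. Knockout replicate 1 gave 9 of them. In that library Rab26os was 39.0 against 133 to 169, Atp5k was 408 against 1406 to 1647, Cox7c was 2456 against 4032 to 4525. There, Uqcr10 was 2032 against 2915 to 3009, Rps29 was 2412 against 7428 to 8013, Rpl39 was 9219.6 against 26067 to 27844. In the same library Rpl38 was 3924 against 8793 to 10460.1, Rps28 was 3932 against 9129.9 to 10324, Glb1 was 1433 against 1317 to 1343. 

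The others were spread over further libraries. Casp4 in knockout replicate 3 was 147, against 103 to 113 in the other 4 libraries of its genotype. Gda in wild-type replicate 2 was 497, against 399 to 425 in the other 4 libraries of its genotype. CT010467.1 in wild-type replicate 2 was 16176, against 8130.3 to 9662 in the other 4 libraries of its genotype. Aplp1 in wild-type replicate 2 was 32.7, against 26.0 to 27.0 in the other 4 libraries of its genotype. Fn1 in knockout replicate 5 was 21661, against 25759.9 to 27195 in the other 4 libraries of its genotype. Krt19 in knockout replicate 5 was 9327, against 7651 to 8062 in the other 4 libraries of its genotype. Rps29 in wild-type replicate 2 was 2034, against 2804 to 2983 in the other 4 libraries of its genotype. Elovl6 in knockout replicate 4 was 2409, against 2045 to 2119 in the other 4 libraries of its genotype. Hacd3 in knockout replicate 5 was 5564, against 4837 to 5039 in the other 4 libraries of its genotype. Dusp4 in wild-type replicate 5 was 536, against 639 to 661 in the other 4 libraries of its genotype. The cause of these values was not tested.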

How the results depend on the processing

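Named genes kept their direction under the alternatives run. Under TMM scaling the calls went from 1141 higher and 1195 lower to 1384 and 953, and the median of the interferon list from -0.01 to 0.01. With each library left out in turn, edgeR called 1620 to 2392 genes (2336 with all 10), 740 to 1188 of them higher (740 without knockout replicate 2, 753 without wild-type replicate 1) and 867 to 1204 lower. List members called numbered 155 to 264, with 83 to 166 higher and 69 to 98 lower; the lowest totals came without wild-type replicate 5 and the highest without knockout replicate 1. The interaction with palmitate was called in 6 genes by DESeq2, in 4 with the replicate block, and in 0 to 2 with a library left out (2 without knockout replicate 1); the cause was not tested. Same-numbered libraries correlated at -0.03 to 0.23, so the numbers were not taken to pair samples, and 19 named calls were lost with the replicate block. On log2(FPKM + 0.1) and log2(FPKM + 1), limma lost 18 and 19 named calls. Across single-library omissions, 39 of 140 named calls were lost at least once. Low counts limit Ripk3, Lgr5 and Casp1.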
